A study of Mus musculus with 12 samples.

Results

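The Hox genes encode homeodomain transcription factors that lie in 4 clusters of the mouse genome, and each gene carries a paralogue number that gives its place in the cluster. The members described here are the 39 genes whose symbol is Hoxa, Hoxb, Hoxc or Hoxd followed by a number, of 47069 genes in the deposited table. They comprise 11 Hoxa genes on chromosome 6, 10 Hoxb genes on chromosome 11, 9 Hoxc genes on chromosome 15 and 9 Hoxd genes on chromosome 2. The rule uses gene names only, though it was set with earlier results of these data known.

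RNA had been sequenced from whole lungs of C57BL/6 mouse embryos at embryonic day 15.5 (E15.5), 3 conditional knockout (CKO) lungs and 3 wild-type (WT) lungs. The CKO genotype is given as Tgfbr2lox/flox/Tbx4-rtTA/Teto-Cre for replicates 1 and 2 and Tgfbr2flox/flox/Tbx4-rtTA/Teto-Cre for replicate 3, and Tgfbr2 encodes the type II receptor of transforming growth factor beta. Per the labels all 6 lungs belong to a protocol of doxycycline, at 1 mg/ml in the water and in the food, from E6.5 to E15.5. In this system Tbx4 sequences drive a doxycycline-dependent activator that turns on Cre, which the design text describes as specific to lung mesenchyme, and a whole-lung sample also holds epithelium, endothelium and blood cells that are not targeted by design. The labels do not say which alleles or transgenes the WT lungs carried, nor whether lungs of a group came from separate litters, and p-values therefore measure the spread between these lungs.

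Hox genes are turned on along the body axis in the order in which they lie in a cluster, with low paralogue numbers towards the head and high numbers towards the tail. In the mouse lung they are mostly genes of the mesenchyme. Hoxa5 is needed for normal trachea and lung formation, and Hoxa5, Hoxb5 and Hoxc5 together act upstream of Wnt2, Wnt2b and Bmp4 in the developing mouse lung.

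Tgfbr2 itself had 213, 221 and 239 CPM in CKO replicates 1 to 3, against 199.7, 203 and 230.0 CPM in WT replicates 1 to 3 (CPM, counts per 1000000 counts of the TMM-scaled library). These counts span the full gene in untargeted cells too, and the labels do not place the floxed part, so they give no check of the deletion. The lungs differed in ways their group names do not give. Gene counts summed to 36741615 to 41680516 per CKO lung and 31983717 to 51572845 per WT lung, of which 12213 to 14021 and 12984 to 19801 were counts of Hox genes. On the leading principal component of all genes, with 54.1% of the variance, CKO replicate 1 lay at -2.41, CKO replicates 2 and 3 at 45.3 and 50.8, and the WT lungs between -34.4 and -28.1. Xist, the RNA of the inactive X chromosome, was high in replicate 1 of each group only. Reads outside annotated genes were 17.0%, 11.8% and 12.8% of uniquely mapped reads in CKO replicates 1 to 3, against 16.1%, 15.3% and 14.5% in WT replicates 1 to 3. Lung identity markers were present in every lung: Tbx4 averaged 234 and 243 CPM and Nkx2-1, of lung epithelium, 322 and 287 CPM in CKO and WT lungs.

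Sequences just upstream of the annotated start were read for 3 Hox genes that differ in what follows, together with the site in Hoxb8 that pairs with a microRNA made within the Hoxb cluster. The RefSeq table used here (GRCm38.p6) held windows for 22 Hox genes, and Hoxb2, Hoxb5 and Hoxb6 were not among them. Hoxb4, which is lower in the CKO lungs, and Hoxa5, which is not called, are shown over 250 bases each, with capitals marking CAGAC on either strand, a core letter sequence bound by SMAD proteins.
Hoxb4, chr11:96318017-96318266, plus strand: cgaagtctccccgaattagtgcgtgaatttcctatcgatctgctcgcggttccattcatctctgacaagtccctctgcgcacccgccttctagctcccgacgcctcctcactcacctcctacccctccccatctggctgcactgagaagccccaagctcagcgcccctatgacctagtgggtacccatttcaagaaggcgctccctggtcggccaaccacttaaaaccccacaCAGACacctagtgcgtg
Hoxa5, chr6:52204588-52204837, minus strand: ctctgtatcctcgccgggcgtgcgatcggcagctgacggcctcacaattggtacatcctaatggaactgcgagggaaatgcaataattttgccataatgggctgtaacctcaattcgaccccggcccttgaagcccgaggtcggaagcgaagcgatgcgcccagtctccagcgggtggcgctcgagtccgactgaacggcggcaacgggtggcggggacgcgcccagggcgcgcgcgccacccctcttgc
CAGAC occurred once in the Hoxb4 window and not in the Hoxa5 window. It occurred in 7 of 24 Hox windows (29.2%), against 42.2% of all 32851 windows of the table. The others that hold it are those of Hoxb8, Hoxa2, Hoxa7 and Hoxc4, which were not called, and of Hoxa10 and Hoxd12, which had almost no counts or none. A match describes letters and not binding. The letters TGATNNAT, a composite bound by HOX and PBX proteins, occurred on either strand in 4 of 24 Hox windows (16.7%) and in 7.68% of all windows.

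The window of Hoxd1 is shown because its start lies head to head with that of Haglr, a long noncoding RNA of the opposite strand; capitals mark the 83 bases between the 2 annotated starts.
Hoxd1, chr2:74762730-74762979, plus strand: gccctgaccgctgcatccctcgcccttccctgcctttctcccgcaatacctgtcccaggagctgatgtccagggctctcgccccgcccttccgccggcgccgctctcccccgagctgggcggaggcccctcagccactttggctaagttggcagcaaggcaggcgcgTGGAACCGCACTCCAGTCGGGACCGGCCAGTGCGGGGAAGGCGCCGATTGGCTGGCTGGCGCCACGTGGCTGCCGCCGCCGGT
The third set is miR-196a, which lies between Hoxb9 and Hoxb13 and is known in mouse to direct cleavage of Hoxb8 mRNA. Capitals mark its seed, bases 2 to 8, and the stretch of the Hoxb8 transcript that pairs with the seed.
miR-196a-5p, chr11:96265187-96265208, plus strand: uAGGUAGUuucauguuguuggg
Hoxb8 transcript, chr11:96284888-96284909, plus strand: cccaacaacaugaaACUGCCUa
All 22 bases of the microRNA could pair with this stretch, which lies after the coding sequence, 21 as Watson-Crick pairs and 1 as a G-U pair.

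Hox RNA in these lungs came mainly from the low-numbered and central part of the Hoxa and Hoxb clusters. Levels between genes are compared as CPM per kilobase of merged exons, as mean ± SD over 3 lungs. Hoxa5 stood highest by far, at 70.6 ± 3.14 CPM per kb in CKO lungs and 70.8 ± 7.78 in WT lungs. The next genes were Hoxb5, with 12.2 ± 0.592 in CKO and 20.2 ± 2.94 in WT lungs, and Hoxb4, with 14.5 ± 0.859 in CKO and 18.4 ± 1.96 in WT lungs. In WT lungs the ranges of Hoxb5 (17.1 to 23) and Hoxb4 (16.2 to 19.8) overlapped, whereas in CKO lungs Hoxb4 (13.9 to 15.5) lay above Hoxb5 (11.8 to 12.9). The authors' deposited RPKM, which use longer gene lengths for Hoxb5, place Hoxb4 above Hoxb5 in both groups, at 14.4 and 7.26 RPKM in CKO and 18.3 and 12 RPKM in WT lungs. Below them in WT lungs came Hoxb6 (10.2 ± 2.29), Hoxa4 (8.80 ± 1.66) and Hoxa2 (8.45 ± 1.03), neighbours whose values overlap, then Hoxb3, Hoxa6 and Hoxa3 at 4.08 to 5.75. In CKO lungs Hoxa4 and Hoxa2 ranked above Hoxb6. The lengths include exon bases shared with other genes, which 16 of 39 members have. Among the genes ranked above, the shared part was 52.9% for Hoxb3, 27.1% for Hoxa3, 16% for Hoxa4, 15.0% for Hoxa2 and 3.59% for Hoxb5. It was 27.3% for Hoxb2 and 20.4% for Hoxa7. Hoxd3, Hoxd4 and Hoxa11, with few counts or none, shared 62.85%, 52.3% and 35.0%. How reads over shared bases were counted is not stated, so these ranks and the shares below carry that limit.

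**Figure D1:**
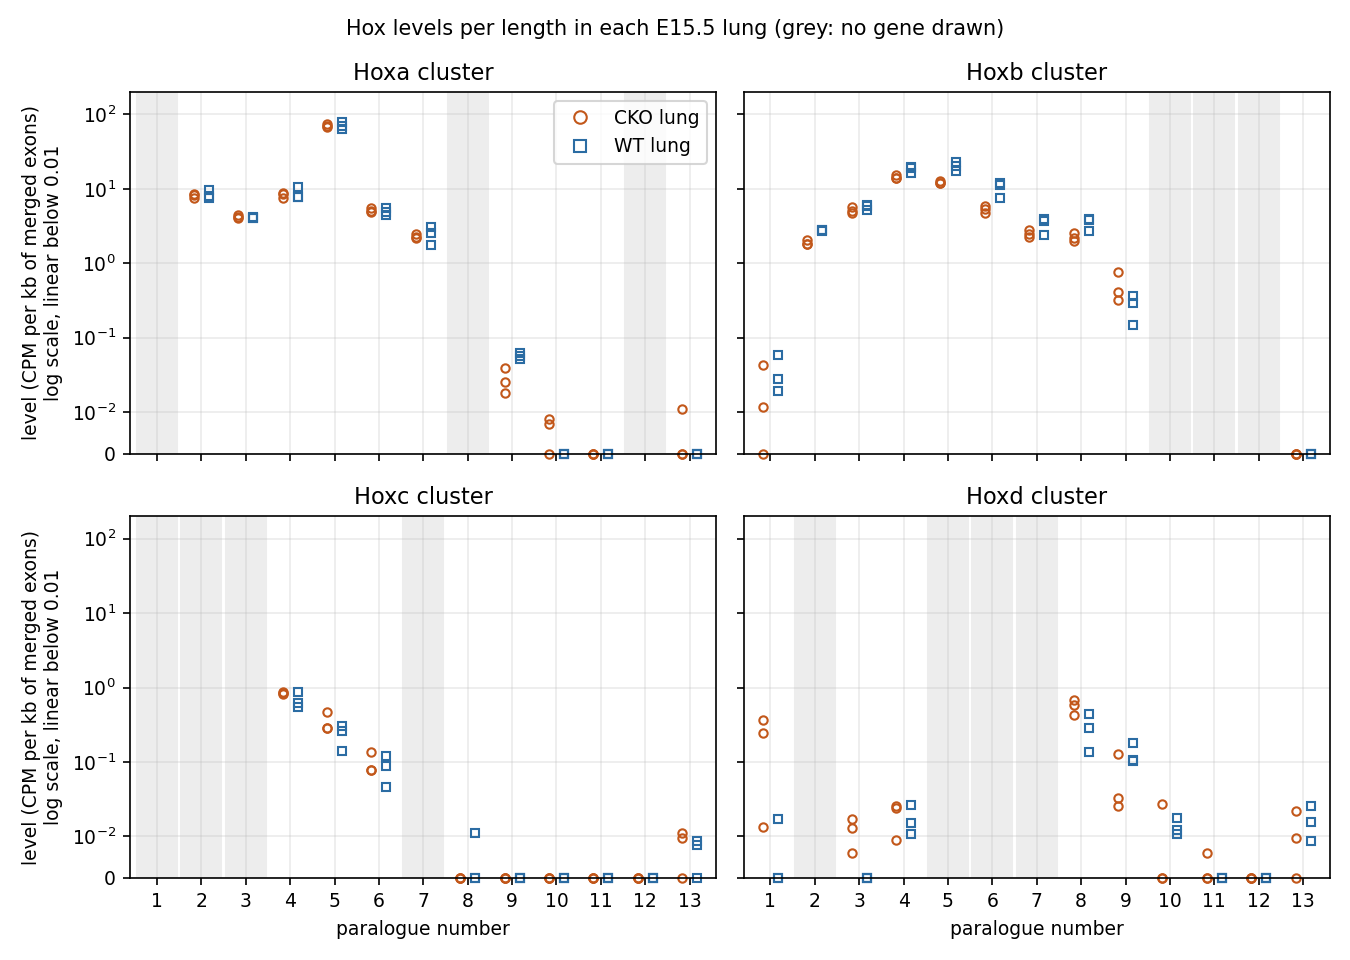
Level of each Hox gene per lung, in CPM per kilobase of merged exons on a log axis that is linear below 0.01, against paralogue number, with 1 panel per cluster; circles are the 3 CKO lungs, squares the 3 WT lungs, and grey bands mark numbers for which no gene is drawn. Hoxa5 stands highest, Hoxb3 to Hoxb6 come within the next ranks, and genes with numbers from 9 up are low. Hoxb9 is the highest of these, at 0.323 to 0.755 in CKO and 0.149 to 0.368 in WT lungs.

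Paralogue group 5 held 56.7 ± 1.61% of the summed Hox level in CKO lungs and 54.7 ± 1.26% in WT lungs, nearly all of it Hoxa5 and Hoxb5. Group 4 followed with 16.1 ± 0.672% in CKO and 16.8 ± 0.138% in WT lungs, and group 6 with 7.22 ± 0.557% and 9.13 ± 0.752%. By cluster, Hoxa genes held 67.5%, 70.0% and 67.4% of the summed level in CKO replicates 1 to 3, against 60.7%, 58.7% and 62.1% in WT replicates 1 to 3. Hoxb genes held 31.2%, 28.5% and 31.0% in CKO lungs, against 38.5%, 40.3% and 37.2% in WT lungs. Neither share overlapped between the groups, but these shares nearly make up the whole and are not separate results. The summed Hoxa level overlapped, at 95.9 to 104.3 CPM per kb in CKO and 90.8 to 111.9 in WT lungs. The summed Hoxb level did not, at 42.5 to 46.05 CPM per kb in CKO and 54.3 to 70.9 in WT lungs. The higher Hoxa share in CKO lungs therefore does not show a higher Hoxa level. The Hoxc and Hoxd clusters together held under 2% in every lung: their mean shares were 0.891% and 0.605% in CKO lungs and 0.602% and 0.278% in WT lungs.

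The posterior genes were almost silent. The 16 members with paralogue numbers from 9 up reached at most 1.27 CPM on average in CKO lungs and 0.697 CPM in WT lungs, both for Hoxb9, and 2 of them, Hoxa9 and Hoxb9, had enough counts to be tested. Hoxa11, Hoxb13, Hoxc9, Hoxc10, Hoxc11, Hoxc12 and Hoxd12 had 0 counts in all 6 lungs, and Hoxa10 and Hoxa13 had at most 1 in any lung. A count of 0 allows up to 0.0584 to 0.0960 CPM per lung (3 counts; counting error only). At the low end of its cluster, Hoxb1 had 0 to 4 counts per CKO lung and 2 to 7 per WT lung.

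The design sets CKO against WT lungs to ask how the whole lung responds when mesenchymal Tgfbr2 is deleted. Hoxb2, Hoxb5 and Hoxb6 fell, Hoxb4 fell just past the threshold, and no gene of the other clusters was called. Of 39 members 19 passed the low-count filter (8 Hoxa, 8 Hoxb, 2 Hoxc and 1 Hoxd), and edgeR's quasi-likelihood test called 4 lower and 0 higher at a Benjamini-Hochberg adjusted p under 0.05 over all 17843 tested genes. Over all tested genes 8.71% were called, 3.08% lower and 5.64% higher. DESeq2 called 5 members lower, with Hoxb8 added, and 0 higher, beside 13.9% of all tested genes (5.76% lower and 8.13% higher). Without a call stood 15 tested members, and the other 20 had too few counts. The median log2 fold change was -0.47 over the 8 tested Hoxb genes and -0.03 over the 8 tested Hoxa genes, beside -0.09 over all tested members and -0.005 over all tested genes. At an unadjusted p under 0.05 stood 7 of the 19 tested members, the 4 called ones with Hoxb8 and Hoxa9, all lower, and Hoxd8, higher, beside 25.4% of all tested genes (12% lower and 13.4% higher). Hoxa9 passed the low-count filter through the WT lungs only, where it is higher, and counts that include it support nothing about the members. In bulk tissue, fewer cells of a type and less RNA per cell cannot be told apart.

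Hoxb5, a paralogue of Hoxa5 that acts with it in lung branching, had 35.9, 33.1 and 33.0 CPM in CKO replicates 1 to 3, against 64.1, 56.9 and 47.7 CPM in WT replicates 1 to 3. Every CKO lung lay below every WT lung. The log2 fold change was -0.72 ± 0.10 SE, 1.65-fold lower in CKO lungs (95% interval of the log2 fold change -0.97 to -0.48, edgeR adjusted p = 0.00888).

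Hoxb6, the next gene of the cluster and known from lateral plate mesoderm, had 11.4, 9.37 and 10.7 CPM in CKO lungs, against 23.2, 22.0 and 14.9 CPM in WT lungs. The groups did not overlap, and WT replicate 3 was the lowest WT lung. Hoxb6 was 1.91-fold lower in CKO lungs, the largest change of the called members (log2 fold change -0.93 ± 0.17 SE, edgeR adjusted p = 0.0190).

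Hoxb2, known for its part in hindbrain and facial nerve patterning, had 6.30, 6.29 and 7.27 CPM in CKO lungs, against 9.63, 9.89 and 9.37 CPM in WT lungs. The WT lungs were close together and all above the CKO lungs. The log2 fold change was -0.54 ± 0.10 SE, 1.45-fold lower in CKO lungs (edgeR adjusted p = 0.0196). Hoxb2 shares 27.3% of its exon bases with the antisense gene Hoxb3os, and the strand setting of the counting is not stated, so reads of the pair may not be told apart. Hoxb3os itself had 3.02 CPM in CKO and 3.23 CPM in WT lungs and was not called.

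Hoxb4, also known for promoting expansion of blood progenitors, had 35.7, 36.0 and 39.7 CPM in CKO lungs, against 49.4, 50.9 and 41.6 CPM in WT lungs. The groups did not overlap, though CKO replicate 3 and WT replicate 3 were close. Its log2 fold change of -0.35 ± 0.09 SE, 1.27-fold lower in CKO lungs, lay just past the threshold (edgeR adjusted p = 0.0492). The call was lost with total count scaling (adjusted p = 0.0553), limma-voom (0.0532) and the 17Feb16 run alone (0.0986).

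Hoxb8 and Hoxb7 were not called. Hoxb8, which also acts in microglia-like myeloid cells of the mouse, had 5.73, 5.21 and 6.65 CPM in CKO lungs, against 10.2, 10.5 and 7.12 CPM in WT lungs. The groups did not overlap, and the log2 fold change was -0.66 ± 0.17 SE (edgeR adjusted p = 0.0537). Hoxb7, known as a gene of the kidney's ureteric bud, had 3.54, 3.81 and 4.27 CPM in CKO lungs, against 5.98, 5.74 and 3.73 CPM in WT lungs. Here WT replicate 3 lay within the CKO range, and the log2 fold change was -0.41 ± 0.20 SE (adjusted p = 0.240). With WT replicate 3 left out both were called, Hoxb8 at -0.81 (adjusted p = 0.0145) and Hoxb7 at -0.59 (0.0408), beside 11.4% of all tested genes.

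Hoxb3, whose exons overlap Hoxb3os over 52.9% of their bases, had 20.3 to 23.9 CPM in CKO and 22.1 to 26.1 CPM in WT lungs, overlapping ranges (log2 fold change -0.16, adjusted p = 0.324). Hoxb9 went the other way in its point value, with 0.831 to 1.94 CPM in CKO and 0.384 to 0.948 CPM in WT lungs (log2 fold change 0.83, 95% interval -0.12 to 1.78, adjusted p = 0.251).

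**Figure D2:**
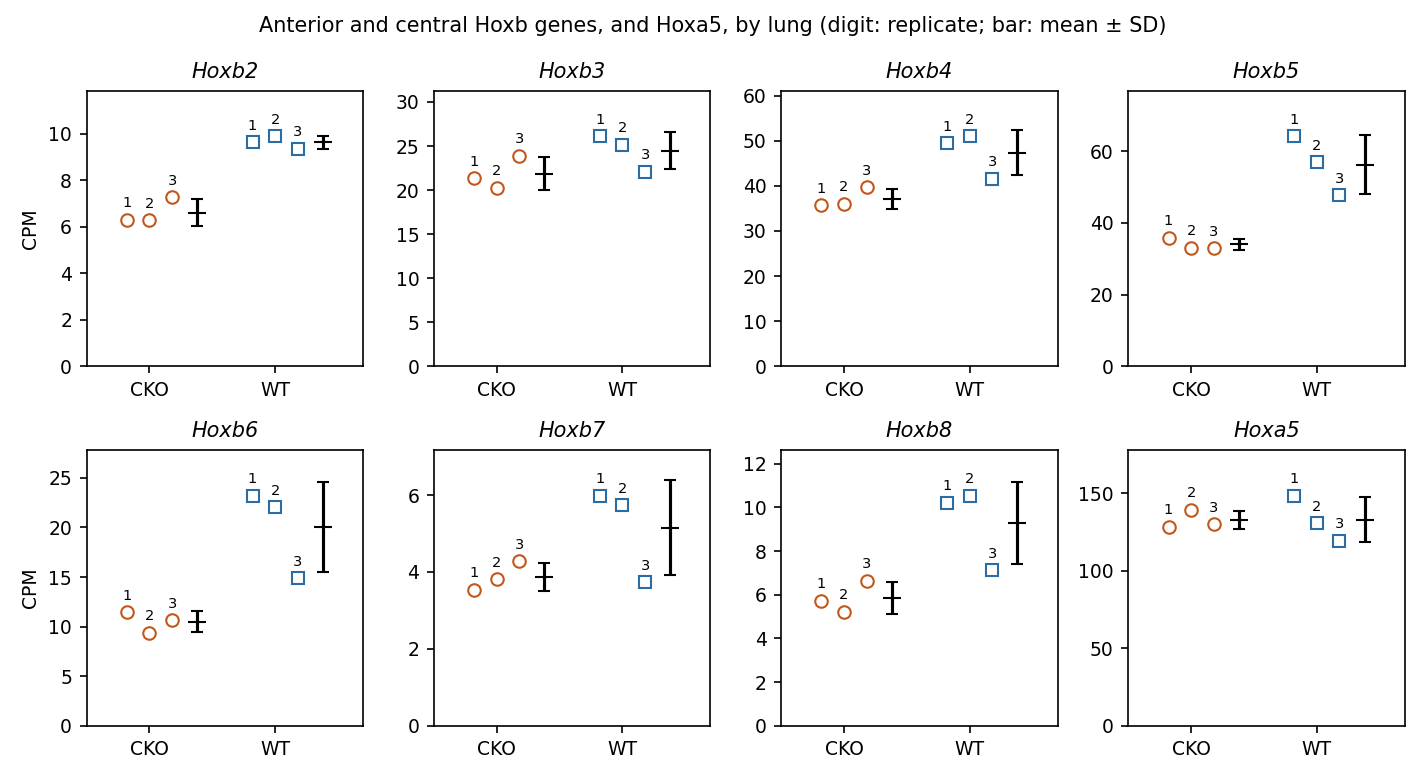
CPM of Hoxb2 to Hoxb8 and of Hoxa5 in each lung, CKO left and WT right, with replicate numbers above the points and mean ± SD beside them. CKO lungs lie below all WT lungs for Hoxb2, Hoxb4, Hoxb5, Hoxb6 and Hoxb8, WT replicate 3 is the lowest WT lung in every Hoxb panel, and Hoxa5 overlaps.

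These Hoxb values rested on few lungs. WT replicate 3 was the lowest WT lung for 7 of 7 genes from Hoxb2 to Hoxb8, and for 6 of 8 tested Hoxa genes. Leaving out CKO replicate 2 or WT replicate 2 left 0 members called, though 301 and 252 genes were called in all, 1.65% and 1.39% of those tested. Hoxb2, Hoxb4, Hoxb5, Hoxb6 and Hoxb8 kept an unadjusted p under 0.05 in both of these fits. The share of all genes at that p was not computed for them, and was 25.4% with all lungs. Leaving out WT replicate 1 left 1 (Hoxb5), leaving out CKO replicate 3 left 2 (Hoxb2 and Hoxb5), and leaving out WT replicate 3 gave 6. Beside these, 2.16%, 2.66% and 11.4% of all tested genes were called, against 8.71% with all lungs. The log2 fold change of Hoxb5 stayed between -0.82 and -0.62 with any 1 lung left out (edgeR adjusted p 0.00361 to 0.0559), that of Hoxb6 between -1.10 and -0.81 (0.00374 to 0.0919), that of Hoxb2 between -0.60 and -0.49 (0.0212 to 0.0991) and that of Hoxb4 between -0.43 and -0.29 (0.0158 to 0.194).

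CKO replicate 1 stood between the groups over all genes, while for the 4 called members it lay with the other CKO lungs. Its shift from the WT mean was 117%, 123%, 87.7% and 85.9% of the mean shift of CKO replicates 2 and 3 for Hoxb2, Hoxb4, Hoxb5 and Hoxb6, beside a median of 64.7% over all 1555 called genes (quartiles 50.4% and 80.6%). Without CKO replicate 1, Hoxb2, Hoxb5 and Hoxb6 were called and Hoxb4 was not (log2 fold change -0.31, adjusted p = 0.0699). In that fit 15.9% of all tested genes were called.

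Several cell type markers moved with the groups. The 12 mesenchyme markers summed to 4217 to 4852 CPM in CKO lungs and 3731 to 4256 CPM in WT lungs, overlapping ranges. Of these Tcf21 was called higher and Wnt2, Pdgfra and Twist1 lower. Col1a1 and Col1a2 made the largest terms of that sum and were not called. They averaged 1620.5 and 1693 CPM in CKO and 1315 and 1527 CPM in WT lungs. The 12 epithelial markers summed to 1788 to 2169 CPM in CKO and 2358 to 2958 CPM in WT lungs. Here Foxa1, Foxa2, Epcam, Sox9 and Krt18 were called lower. Tbx4 and Foxf1 of lung mesenchyme were not called (log2 fold changes -0.06 and -0.03), while Pdgfra was 1.35-fold lower in CKO lungs. Markers of neurons and glia, cells in which Hoxb genes are also active, summed to 14.9 to 20.02 CPM in CKO and 21.4 to 25.3 CPM in WT lungs, with 1 of 10 tested called lower. Markers of trachea and oesophagus summed to 1.65 to 5.60 CPM in CKO and 15.4 to 19.5 CPM in WT lungs, with 1 of 4 tested called lower, and 5 of 8 endothelial, 4 of 7 immune and 2 of 6 erythroid markers were called higher. Of all tested genes 3.08% were called lower and 5.64% higher. No marker of these lists was at 0 in all lungs. Their part in the Hoxb values was not tested.

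None of the 8 tested Hoxa genes was called by edgeR, and 1, Hoxa9, had an unadjusted p under 0.05. Hoxa5 had 128, 139 and 130 CPM in CKO replicates 1 to 3, against 148, 131 and 119 CPM in WT replicates 1 to 3, and the CKO values lay within the WT range. Its log2 fold change was -0.003 ± 0.08 SE with a 95% interval of -0.18 to 0.18 (edgeR adjusted p = 0.990). Hoxa2, Hoxa3, Hoxa4, Hoxa6 and Hoxa7, known in hindbrain, pharyngeal and skeletal patterning, had log2 fold changes of -0.09 to 0.06 with overlapping groups, and the sign of those of Hoxa2, Hoxa4, Hoxa5, Hoxa6 and Hoxa7 turned with 1 lung or another left out. Hoxa9, low at 0.100, 0.216 and 0.142 CPM in CKO lungs, against 0.320, 0.3504 and 0.287 CPM in WT lungs, did not overlap between the groups (log2 fold change -1.06 ± 0.38 SE, adjusted p = 0.133), and rested on 4 to 18 counts per lung. All 3 WT lungs and 0 CKO lungs reached the filter's limit of 0.244 CPM, so Hoxa9 could be tested only if it was higher in WT lungs, and its difference is a description. In all, 6 tested members, Hoxa9 included, lay lower without overlap and 1 higher, beside 14.4% and 15.5% of all tested genes, 29.9% together.

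**Figure D3:**
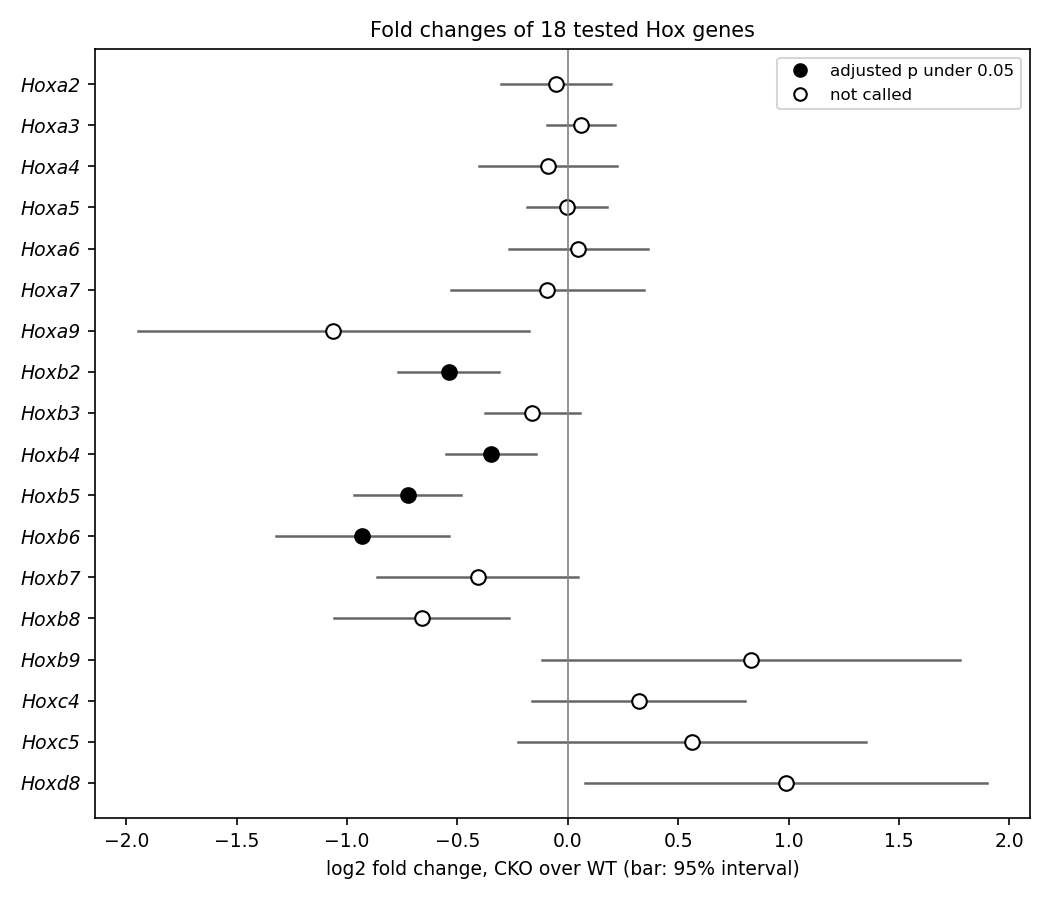
Log2 fold change, CKO over WT, of 18 tested Hox genes with its 95% interval, ordered by cluster and paralogue number; filled points are called at an adjusted p under 0.05. Hoxb2, Hoxb4, Hoxb5 and Hoxb6 are called lower, and the intervals of Hoxa2 to Hoxa7 include 0.

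Hoxb and Hoxa genes of the same number were set against each other within each lung, which cancels the library scaling; these ratios were chosen after the data were seen. The ratio of Hoxb5 to Hoxa5 levels was 0.189, 0.160 and 0.171 in CKO replicates 1 to 3, against 0.291, 0.294 and 0.269 in WT replicates 1 to 3. That of Hoxb6 to Hoxa6 was 1.18, 0.959 and 0.984 in CKO lungs, against 2.67, 1.999 and 1.56 in WT lungs. CKO lungs lay below all WT lungs for numbers 2, 3, 5 and 6 (exact permutation test, two-sided, p = 0.1, the smallest that 3 against 3 allows, and 0.15 adjusted over the 6 ratios) and overlapped with them for 4 and 7 (p = 0.2). That test cannot reach 0.05 with these numbers of lungs, and no other test of the ratios was run.

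**Figure D4:**
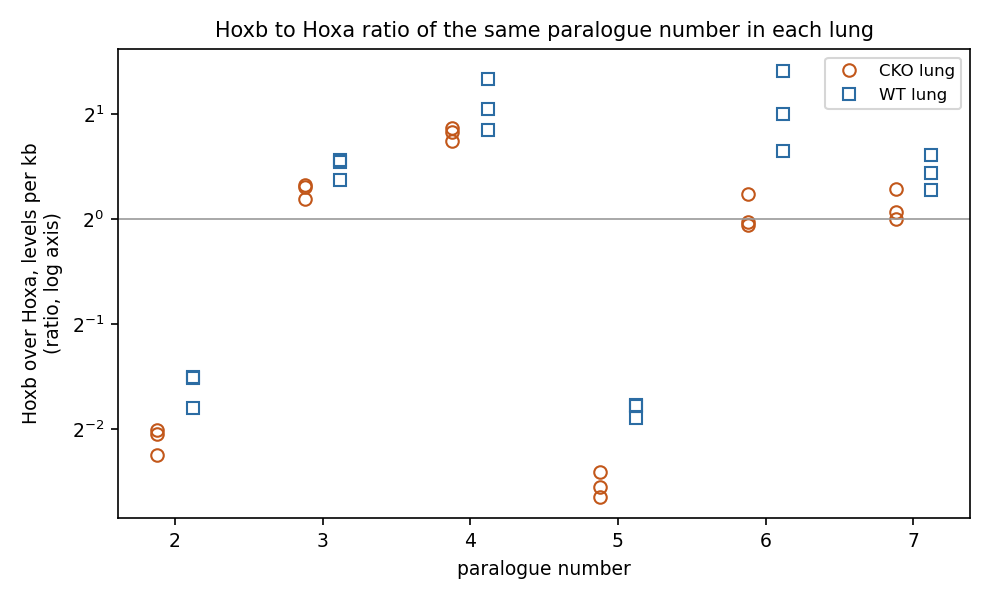
Ratio of the Hoxb to the Hoxa level per kilobase for paralogue numbers 2 to 7 in each lung, on a log axis; circles are CKO lungs and squares WT lungs. For numbers 2, 3, 5 and 6 every CKO lung lies below every WT lung, as for Hoxb5 over Hoxa5 with 0.160 to 0.189 in CKO and 0.269 to 0.294 in WT lungs.

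The Hoxc and Hoxd clusters were low, and the differences there were not called. Hoxc4, the highest of the Hoxc genes, had 2.27, 2.13 and 2.16 CPM in CKO lungs, against 1.60, 2.24 and 1.39 CPM in WT lungs. The groups overlapped (log2 fold change 0.32 ± 0.21 SE, adjusted p = 0.385). Hoxc5, the third member of the lung-linked paralogue group 5, had 0.897, 0.891 and 1.45 CPM in CKO lungs, against 0.800, 0.954 and 0.441 CPM in WT lungs, also overlapping (log2 fold change 0.56 ± 0.34 SE, adjusted p = 0.35). Hoxc6 had 7 to 13 counts per CKO lung and 5 to 11 per WT lung, and Hoxc8 and Hoxc13 at most 1.

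Hoxd8, the highest of the Hoxd genes, had 1.17, 1.89 and 1.59 CPM in CKO replicates 1 to 3, against 1.22, 0.798 and 0.375 CPM in WT replicates 1 to 3. CKO replicate 1 lay just below WT replicate 1, and the other CKO lungs above all WT lungs. It was not called (log2 fold change 0.99 ± 0.39 SE, adjusted p = 0.166); with replicates 2 and 3 only, a choice made after the data were seen, it was (1.55, adjusted p = 0.0322). Hoxd9 had 2 to 11 counts per CKO lung and 7 to 20 per WT lung, and Hoxd3, Hoxd4, Hoxd10, Hoxd11 and Hoxd13 had 0 to 4 in every lung.

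Hoxd1, which in mouse is known from pain-sensing neurons, had 1, 17 and 29 counts in CKO replicates 1 to 3, against 1, 0 and 0 counts in WT replicates 1 to 3. CKO replicates 2 and 3 stood apart, and CKO replicate 1 was at the WT level. Per library size the summed counts were 50.4 times higher in CKO lungs (exact 95% interval 8.62 to 2033, counting error only). With its counts in 2 lungs Hoxd1 failed the low-count filter; with no filter it was called (edgeR log2 fold change 5.17, adjusted p = 0.0135). Without CKO replicate 1 it passed the filter through CKO replicates 2 and 3, where it is high, so the call in that fit follows from the selection and is not counted as a test. Hoxd1 passed the filter through the same lungs without WT replicate 1, 2 or 3, and was then not called (edgeR adjusted p = 0.161, 0.218 and 0.113).

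Around Hoxd1, Haglr, its head-to-head partner in the sequence above, had 3, 8 and 20 counts in CKO replicates 1 to 3, against 1, 4 and 1 in WT replicates 1 to 3. Gm14424, an unnamed noncoding gene between Hoxd3 and Hoxd1 that was picked after its values were seen, had 3, 4 and 15 counts in CKO lungs, against 0, 0 and 0 in WT lungs. Both were highest in CKO replicate 3, as was Hoxd1, and neither was tested. Markers of skeletal muscle summed to 8.82, 15.3 and 16.2 CPM in CKO replicates 1 to 3, against 6.85 to 7.30 CPM in WT lungs. The markers called higher were Pax7, a muscle progenitor and neural gene with 0.473, 6.21 and 6.25 CPM in CKO lungs and at most 0.0662 CPM in WT lungs, and Myh8, a developmental myosin with 1.12, 3.81 and 3.73 CPM in CKO lungs and 0.175 to 0.485 CPM in WT lungs. Pax7 passed the low-count filter through the CKO lungs only, where it is high. Its call therefore follows from the selection and is not counted as a test. Leaving Pax7 and Myh8 out, a choice made after their values were seen, the other 8 markers summed to 7.22, 5.29 and 6.20 CPM in CKO lungs, against 6.44 to 6.91 CPM in WT lungs. The part of muscle cells in the Hoxd values was not tested.

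**Figure D5:**
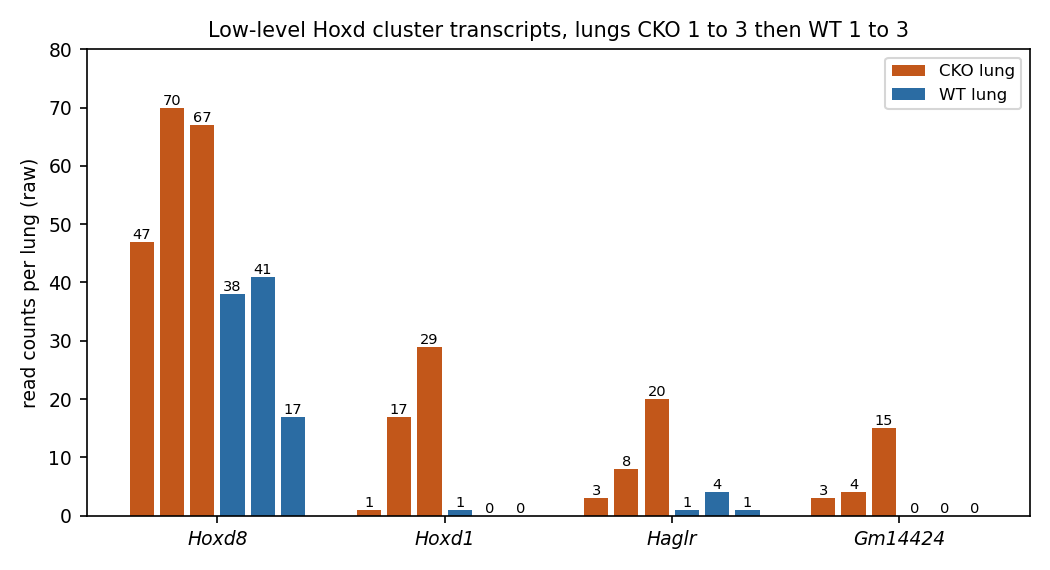
Raw counts of Hoxd8, Hoxd1 and the noncoding genes Haglr and Gm14424 in CKO replicates 1 to 3 and then WT replicates 1 to 3. Hoxd1 has 17 and 29 counts in CKO replicates 2 and 3 and at most 1 in every other lung.

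In the authors' deposited table, which lists 22 of the members, Hoxb5, Hoxb6, Hoxb2 and Hoxb8 were lower and Hoxd1 and Hoxd8 higher at an adjusted p under 0.05, where 12% of its 19683 genes passed. The authors' deposited table gives Hoxd1 a log2 fold change of 5.16 (adjusted p = 7.53e-07) and Hoxb4 one of -0.35 (adjusted p = 0.0835). That table lists a filtered set of genes. Nearly all Hoxd1 counts come from CKO replicates 2 and 3, where it is high, so its call there is likewise not counted as a test.

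Other transcripts within the clusters were not called. Of 46 such annotated genes 21 had counts and 14 were tested, with 0 called by edgeR. An unadjusted p under 0.05 was reached by 2, Mir196a-1 and Hoxb5os, beside 25.4% of all tested genes. Hoxb5os, antisense to Hoxb5 over 3.59% of the exon bases of Hoxb5, had 3.96, 4.16 and 3.99 CPM in CKO lungs, against 4.74, 4.91 and 4.83 CPM in WT lungs, without overlap (log2 fold change -0.26 ± 0.11 SE, adjusted p = 0.197). The row of Mir196a-1, the hairpin whose microRNA is shown above, had 19, 16 and 12 counts in CKO lungs, against 6, 13 and 10 in WT lungs (log2 fold change 0.81 ± 0.33 SE, adjusted p = 0.182); reads over the hairpin in such libraries do not measure the mature microRNA. Haglr and Hoxd3os1, with 37 and 17 counts over all lungs, exceeded Hoxd3, whose exons they overlap and which had 6.

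HOX proteins bind DNA with PBX, MEIS and PKNOX partners, and of 9 tested partner genes 1 rose and 0 fell, with a median log2 fold change of -0.02. Over all tested genes 5.64% were called higher and 3.08% lower. The gene that rose was Pknox2, with 25.1, 31.6 and 32.9 CPM in CKO lungs, against 17.7, 17.1 and 20.4 CPM in WT lungs, without overlap (log2 fold change 0.70 ± 0.12 SE, edgeR adjusted p = 0.0151). Pbx3, Pknox1 and Meis1 had log2 fold changes of -0.20, 0.10 and -0.10 and were not called; Pbx3 had an unadjusted p under 0.05.

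Polycomb and trithorax complexes and the Cdx family keep Hox genes off or on. Of 22 tested Polycomb and trithorax genes 1 rose and 1 fell, beside 8.71% of all tested genes called, with a median log2 fold change of -0.05. Ezh1, a Polycomb methyltransferase, had 49.6 ± 2.27 CPM in CKO and 40.2 ± 2.12 CPM in WT lungs (log2 fold change 0.30 ± 0.06 SE, edgeR adjusted p = 0.0278). Cbx2, a Polycomb subunit that reads the methyl mark, had 61.9 ± 4.75 CPM in CKO and 76.4 ± 2.41 CPM in WT lungs (-0.30 ± 0.06 SE, adjusted p = 0.0299). Rnf2 and Bmi1 had -0.14 and -0.16 and were not called. The Cdx genes had too few counts to be tested. Cdx1 had 2 to 11 counts per CKO lung and 3 to 6 per WT lung, and Cdx2 and Cdx4 had 0 counts in all lungs.

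All 5 genes chosen as linked to paralogue group 5 in mouse lung were called, in both directions, beside 8.71% of all tested genes. Wnt2, a mesenchymal WNT ligand, had 61.5, 66.3 and 58.8 CPM in CKO lungs, against 99.3, 95.2 and 87.8 CPM in WT lungs, 1.51-fold lower (edgeR adjusted p = 0.00386). The WNT-responsive genes Lef1 and Axin2 fell 1.81-fold and 1.30-fold (adjusted p = 0.0345 and 0.0107). Wnt2b, another ligand, had 16.3, 20.6 and 21.1 CPM in CKO lungs, against 10.5, 11.4 and 8.38 CPM in WT lungs, 1.92-fold higher (adjusted p = 0.0109). Bmp4 had 108, 165 and 187 CPM in CKO lungs, against 75.3, 78.8 and 80.5 CPM in WT lungs, 1.96-fold higher (adjusted p = 0.0189). The list was chosen with results of these data known, so its directions are values and no independent support for any link to Hox levels.

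Genes flanking the clusters were not called: of 12 tested, 0 passed in edgeR. At an unadjusted p under 0.05 stood 3 of them (Skap2, Skap1 and Ttll6), beside 25.4% of all tested genes. Skap2, beside Hoxa, had 78.6, 86.7 and 80.5 CPM in CKO lungs, against 73.1, 71.7 and 68.4 CPM in WT lungs (log2 fold change 0.21, adjusted p = 0.0580). Skap1 and Ttll6, which flank Hoxb, were low, at 0.143 to 0.224 and 0.0238 to 0.697 CPM in CKO lungs and 0.309 to 0.389 and 0.416 to 3.79 CPM in WT lungs (adjusted p = 0.134 and 0.165). Skap1 passed the low-count filter through the WT lungs only, where it is higher, so its difference is a description.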

How the data were processed

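Per the submitters' processing notes the tools were cutadapt 1.13, Trimmomatic 0.35, STAR 2.5.2b and HTSeq 0.6.1p2 on GRCm38. Per the file headers, gene models came from GENCODE M8. The authors' deposited gene table holds raw counts, RPKM and a gene length for each run; strand setting and counting mode are not given in the sources used here. Their deposited comparison table gives, per gene, p-values before and after adjustment and a log2 fold change (edgeR 3.16.5 in the notes); its 24 per-sample columns were not used. RNA was extracted with Trizol and RNeasy and made into Illumina TruSeq v2 libraries, per the labels.

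The 2 runs of each lung were summed, and the 92 spike-ins (0.498% to 0.595% of counts) left out. Counts were tested with edgeR 4.0.16 in R 4.3.3 (quasi-likelihood F test, TMM, filterByExpr with a minimum count of 10, group as single factor), with Benjamini-Hochberg adjustment over all 17843 genes tested and a threshold of 0.05; the procedure was tested on simulated data. SE is the log2 fold change divided by the root of F. Merged exon lengths and positions come from GENCODE M21 of GRCm38, in which all 39 members matched by identifier. Precision is limited by the 3 lungs per group and, for members with few counts, by depth.

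Alternatives were other scalings, no filter, DESeq2 1.42.0, limma 3.58.1 (voom), each run alone, a replicate block and each lung left out. The members and gene lists were chosen with earlier results of these data known. Named are members that are called, that gain a call with 1 lung left out or that are highest in a cluster, other members in brief, and up to 4 genes of other lists with the smallest p, plus called ones and antisense genes that outcount a Hox gene they overlap. Replicate numbers are shared by the groups, but the labels do not say that they pair lungs. A result for 1 member is not reported here, though the counts and medians over members include it.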

Additional observations from a re-analysis of the deposited data

How the results depend on the processing

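Of 282 values of member log2 fold changes under the alternatives, 238 kept direction and side of the threshold, 20 lost a call, 6 gained one and 18 changed sign, all of these for Hoxa genes near 0. Hoxa5 had 0.0168 with total count scaling, 0.00293 with limma-voom, 0.00183 with the replicate block, 0.0234 with the 17Feb16 run alone and 0.105 with replicates 2 and 3 only, an alternative chosen after seeing the data. With the 17Feb16 run alone Hoxa3 had -0.0667, Hoxa4 0.0713 and Hoxa6 -0.0151, and with replicates 2 and 3 only Hoxa2 had 0.106 and Hoxa4 0.125. With 1 lung left out, Hoxa2 ranged from -0.113 to 0.0515, Hoxa4 from -0.166 to 0.0761, Hoxa5 from -0.0654 to 0.0878, Hoxa6 from -0.0205 to 0.147 and Hoxa7 from -0.275 to 0.101. The median over tested members was 0.0543 with replicates 2 and 3 only. The causes were not tested.

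The 4 called members became 0 to 6 with 1 lung left out, and all called genes, 1555, became 252 to 2898; DESeq2 called 2477 and replicates 2 and 3 only 2414. Hoxb4 was not called with total count scaling (adjusted p = 0.0553), limma-voom (0.0532), the replicate block (0.0756) or the 17Feb16 run alone (0.0986), nor Hoxb2 with that run (0.0595), while Hoxb8 was called by DESeq2 (0.00571), with no filter (0.0203) and with that run (0.0466). The replicate block called 3 members (Hoxb2, Hoxb5 and Hoxb6) and 1780 genes in all. Deviations of same-numbered lungs correlated at 0.102, 0.0887 and 0.0365 over 17843 genes, and not all of these were over 0.1, so the numbers were not taken to pair the lungs; each lung correlated best with its own number except CKO replicate 3, as a hint from the data and not the design.

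By the authors' deposited RPKM the Hoxa share of the summed level was 73.5% in CKO and 66.8% in WT lungs, the Hoxb share 25.4% and 32.5%, and the Hoxc and Hoxd shares in CKO lungs 0.689% and 0.443%; 24 of 64 levels per length moved by more than 1 SD, as the authors' lengths are longer for many members. Low counts left 20 members untested, mostly Hoxc, Hoxd and posterior genes.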
